A study of Mus musculus with 9 samples.

Results

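The receptors by which platelets hold on to a vessel wall and to each other were followed in the peripheral blood of mouse embryos. The set lists 9 genes, Gp1ba, Gp1bb, Gp5, Gp6, Gp9, Clec1b, Itga2b, Itgb3 and Treml1, and its members are all probe sets that the platform annotation assigns to one of these genes alone. This gave 10 probe sets of 8 genes, out of 45037 probe sets and 18193 named genes on the arrays. Gp1ba was not analysed here, since no probe set of the table was assigned to it. Gp1bb and Itgb3 were read by 2 probe sets each and the other genes by 1.

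The embryos were at E12.5, on a mixed C57BL6/129SvEv background, and came from matings of heterozygous parents. They carried 0, 1 or 2 copies of the Cbfb allele ΔC95, so the groups are Cbfb+/+ (wild type), Cbfb+/ΔC95 (heterozygous) and, with no normal copy, CbfbΔC95/ΔC95 (homozygous). Cbfb encodes CBFβ, the partner that strengthens DNA binding by RUNX proteins, and the title of the series names the C-terminus of CBFβ-SMMHC, a fusion protein of this gene; what ΔC95 removes is not spelled out in the labels. A sample was blood pooled from 8 to 10 embryos of one genotype. Each genotype had 3 arrays (9 together), and this small number limits the precision. Nothing in the labels shows that replicate arrays are separate pools, so p-values reflect only how these arrays varied, and that may be technical.

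Platelets are shed by megakaryocytes, and in the mouse embryo the first of these cells arise in the yolk sac. Glycoprotein Ib, made of the chains encoded by Gp1ba and Gp1bb, joins the products of Gp9 and Gp5 in a complex of leucine-rich repeat proteins that catches von Willebrand factor on a damaged wall. The integrin of Itga2b and Itgb3 binds fibrinogen and ties platelets together once other receptors have activated it. Such activating receptors include the collagen receptor of Gp6, which signals through the Fc receptor γ chain of Fcer1g, and the podoplanin receptor CLEC-2 of Clec1b, which signals through the kinase Syk. Treml1 encodes a receptor kept in the α granules of resting platelets. RUNX1, GATA1 and ETS factors such as FLI1 are known regulators of megakaryocyte genes.

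The stretch before the start site is one place where such factors can bind, so promoters are shown for 3 members that were lower together in homozygous blood, those whose window lies outside the span of any gene. Each line holds the 250 bases before the RefSeq start site, 5′ to 3′ on the gene's own strand, from RefSeq on GRCm38.p6. Capitals mark exact matches, on either strand, to 5 motifs: TGTGGT for RUNX proteins, AGATAA and the variant TGATAA for GATA factors, CAGGAA and the variant CCGGAA for ETS factors. No match overlapped another in these members.
Gp5, chr16:30310782-30311031, minus strand: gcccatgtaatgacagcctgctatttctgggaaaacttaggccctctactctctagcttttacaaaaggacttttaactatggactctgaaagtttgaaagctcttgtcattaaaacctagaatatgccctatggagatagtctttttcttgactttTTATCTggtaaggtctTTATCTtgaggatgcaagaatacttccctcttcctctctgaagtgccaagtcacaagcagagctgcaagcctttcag
Itga2b, chr11:102469884-102470133, minus strand: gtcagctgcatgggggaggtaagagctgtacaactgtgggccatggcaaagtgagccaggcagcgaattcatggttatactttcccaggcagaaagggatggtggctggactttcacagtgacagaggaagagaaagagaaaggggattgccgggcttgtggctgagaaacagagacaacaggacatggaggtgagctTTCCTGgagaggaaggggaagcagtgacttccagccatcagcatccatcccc
Treml1, chr17:48359666-48359915, plus strand: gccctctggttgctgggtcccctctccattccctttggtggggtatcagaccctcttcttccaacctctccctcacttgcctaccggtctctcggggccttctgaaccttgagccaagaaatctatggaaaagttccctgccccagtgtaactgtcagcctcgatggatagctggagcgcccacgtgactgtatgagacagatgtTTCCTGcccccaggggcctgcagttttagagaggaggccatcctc

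In this window Gp5 held 2 GATA matches, whose first bases lay 93 and 77 bases before the start, and Itga2b and Treml1 held 1 ETS match each, at 52 and 45 bases. The promoter table used here was matched for 8 of the 9 genes named; the promoter of Itgb3 was not analysed here. A GATA match was found in 4 of these 8 (Gp1ba, Gp5, Gp6 and Clec1b), against 16.6% of 32851 promoters in the table. An ETS match was found in 3 (Gp1ba, Itga2b and Treml1), against 35.1%. A RUNX match was found in 1, Gp9, at 171 bases before the start, against 14% of all promoters. The window of Gp1bb held none of the 5 motifs, and it lies within the span of the neighbouring gene Septin5. A match is only a description of these letters.

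Some facts of the arrays bear on every value given. Values are log2 expression and are relative within an array, whose overall level was made equal by the submitters' normalization. Bacterial poly-A transcripts added to the RNA before labelling were higher than in wild-type arrays by 1.58 in homozygous and 0.88 in heterozygous arrays on the log2 scale (24 probe sets). Scaling to them would move the median of all probe sets by -1.58 and -0.88 in these comparisons, and scaling to 9 reference genes by -0.03 and -0.14. Changes given here are relative to the bulk of the array. The share of called probe sets that were higher was 41.7% in homozygous and 39.8% in heterozygous minus wild-type blood, but 31% and 7.03% with reference genes. With the spike-ins no listed gene was higher than wild type in either genotype, so each rise given from here on is relative to the bulk and turns on that scale, save Col3a1 in heterozygous blood, which was then not called. In bulk blood, fewer platelets or megakaryocytes and less RNA per cell cannot be told apart. Erythroid transcripts were near the top of the scale in each genotype, with Hba-x, an embryonic globin, at a mean of 14.30 in wild-type blood.

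Homozygous blood held less receptor RNA than wild-type blood for 7 of the 8 genes, by their brightest probe sets. Gp1bb was lower by 6.24-fold and Clec1b by 3.17-fold. Gp5, Gp9, Itgb3 and Itga2b were lower by 1.88-, 1.77-, 1.77- and 1.64-fold, and Treml1 by 1.35-fold. Gp6 did not pass the test. A probe set was called at an adjusted p under 0.05 in limma's moderated test, adjusted by Benjamini-Hochberg over all 45037 probe sets. By this rule 7 of the 10 probe sets were lower and none higher, where 20% of all probe sets were called, 11.7% lower and 8.34% higher. By at least 2-fold, 2 of the 10 were lower, against 1.33% of all. The median difference was -0.77 over the 10 and 0.04 over all probe sets. The wild-type and homozygous arrays did not overlap in 8 of the 10, against 32.4% of all. In 7 of the 8 the homozygous arrays were lower, and in Gp6 they were slightly higher.

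**Figure D1:**
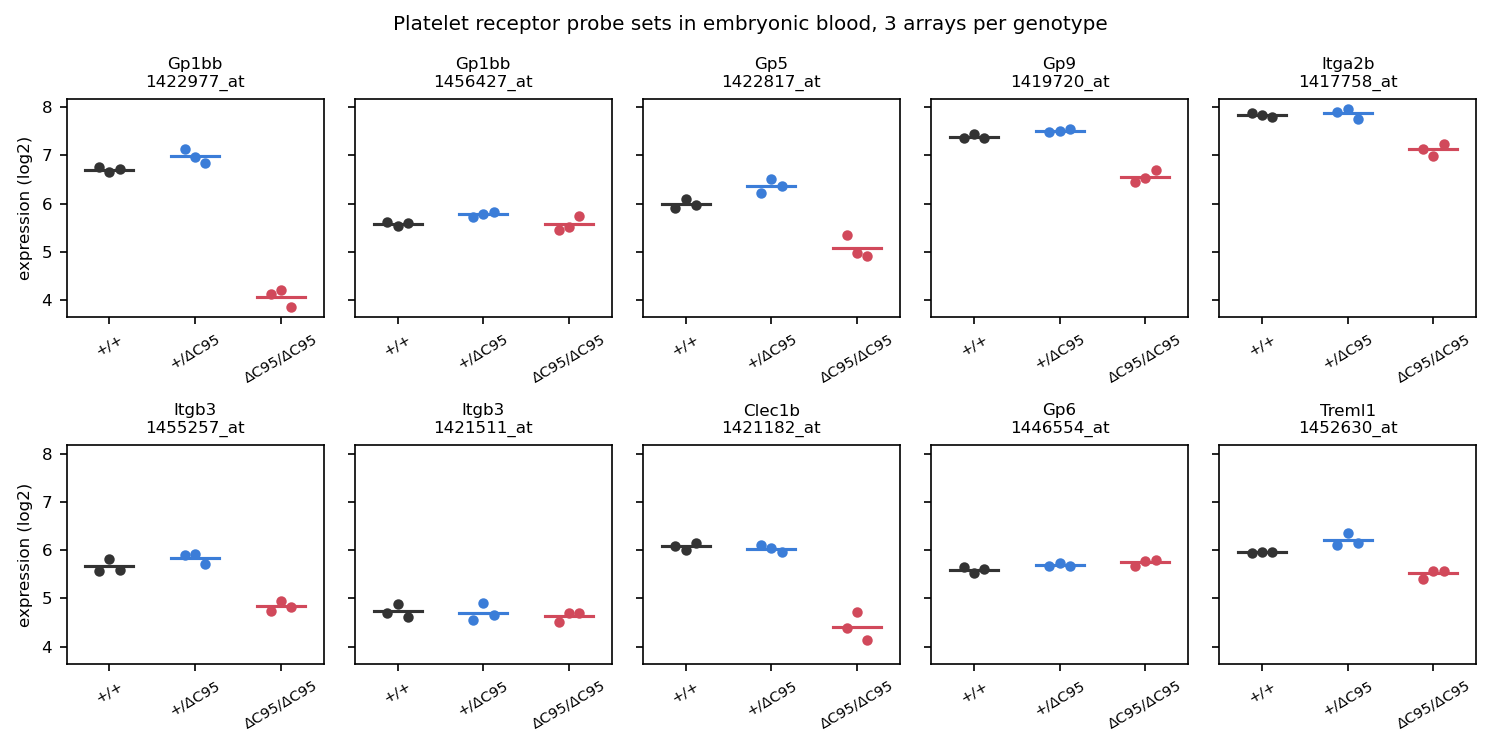
Expression (log2) of each receptor probe set by genotype, with 1 point per array (3 per genotype) and a line at the group mean. In 7 panels the homozygous points lie below all others. The heterozygous points there lie among or slightly above the wild-type points. Exceptions are the lowest heterozygous points of Clec1b and Itga2b, which lie slightly below the wild-type points. The other panels are Gp6 and the dimmer probe sets of Gp1bb and Itgb3.

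The von Willebrand factor receptor complex was read through 3 of its genes. Gp1bb, the β chain that is disulfide-linked to the ligand-binding α chain, stood at 6.75, 6.64 and 6.71 in the wild-type arrays. It stood at 7.14, 6.96 and 6.83 in the heterozygous arrays and at 4.13, 4.201 and 3.85 in the homozygous arrays by its brighter probe set. All 3 homozygous arrays were far below the others, and the heterozygous arrays were each above the wild-type arrays. The homozygous minus wild-type difference was -2.64 ± 0.10 (SE, n = 3 and 3; 95% interval -2.85 to -2.43; limma adjusted p = 7.71e-09). The homozygous mean of 4.06 lay below the median of every array, 4.27 to 4.30, and whether it was above background is unknown.

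The Gp1bb probe set that was dimmer on average showed no such fall. In homozygous arrays it was the brighter of the 2, with a mean of 5.57. It read 5.62, 5.54 and 5.60 in wild-type, 5.72, 5.79 and 5.82 in heterozygous and 5.46, 5.52 and 5.74 in homozygous arrays. Its wild-type and homozygous values overlapped, and the difference was -0.01 (95% interval -0.18 to 0.15; limma adjusted p = 0.926). A further probe set, assigned to Septin5 and Gp1bb together and therefore no member, was dim, with a wild-type mean of 3.81 and means of 4.04 for both mutant genotypes. Its homozygous minus wild-type difference of 0.22 did not pass (limma adjusted p = 0.0533). The call of Gp1bb thus rests on 1 of its 2 probe sets.

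Gp5, the subunit that thrombin cleaves, read 5.90, 6.09 and 5.96 in wild-type arrays, 6.23, 6.50 and 6.37 in heterozygous arrays and 5.34, 4.97 and 4.91 in homozygous arrays. The groups did not overlap, and their order was heterozygous, wild type, homozygous. The homozygous minus wild-type difference was -0.91 ± 0.11 (SE; 95% interval -1.15 to -0.67; limma adjusted p = 6.5e-05). Gp9, the small subunit needed for the complex to reach the surface, read 7.35, 7.45 and 7.35 in wild-type arrays, 7.49, 7.51 and 7.55 in heterozygous arrays and 6.45, 6.53 and 6.69 in homozygous arrays. Here too the 3 groups were separate and in the same order. The difference was -0.82 ± 0.07 (SE; 95% interval -0.97 to -0.67; limma adjusted p = 3.1e-06). The intervals of Gp5 and Gp9 overlapped each other and lay apart from that of the brighter Gp1bb probe set.

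Both chains of the fibrinogen receptor fell by similar amounts. Itga2b, the αIIb chain, which early blood progenitors also carry, read 7.88, 7.83 and 7.80 in wild-type, 7.89, 7.96 and 7.76 in heterozygous and 7.12, 6.99 and 7.24 in homozygous arrays. Heterozygous and wild-type arrays overlapped, and the homozygous arrays were below both. The difference from wild type was -0.72 ± 0.08 (SE; 95% interval -0.88 to -0.55; limma adjusted p = 2.22e-05).

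Itgb3, the β3 chain, which other cells pair with the αv chain of Itgav, read 5.57, 5.81 and 5.60 in wild-type, 5.89, 5.91 and 5.72 in heterozygous and 4.74, 4.95 and 4.82 in homozygous arrays by its brighter probe set. The homozygous arrays were again below both other groups, by -0.82 ± 0.08 from wild type (SE; 95% interval -1.003 to -0.64; limma adjusted p = 1.6e-05). Its other probe set was dimmer, with means of 4.73, 4.70 and 4.64 in the same order, and its groups overlapped. The difference there was -0.09 (95% interval -0.31 to 0.13; limma adjusted p = 0.573), so the call of Itgb3 also rests on 1 probe set of 2. Itgav was at 0.17 in homozygous minus wild-type blood and did not pass (limma adjusted p = 0.138). Osteoclast and mesenchyme cells can also use Itgb3. Of 6 of their marker genes 2 fell, Col3a1 at -0.94 and Acp5 at -0.25, and none rose. Acp5 was bright, with a wild-type mean of 12.18. Ctsk, also of the 6, had a wild-type mean of 4.83, was at 0.08 and did not pass. Over all genes 14.9% fell and 10.7% rose, and the part of these cells in the result was not tested.

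The probe sets of the receptors that start signalling split. Clec1b, the podoplanin receptor, read 6.07, 6.01 and 6.14 in wild-type, 6.10, 6.04 and 5.95 in heterozygous and 4.39, 4.72 and 4.13 in homozygous arrays. Wild-type and heterozygous arrays lay together, and the homozygous arrays lay apart and were more spread (SD 0.06, 0.08 and 0.30, n = 3 each). The homozygous minus wild-type difference was -1.66 ± 0.12 (SE; 95% interval -1.92 to -1.41; limma adjusted p = 8.27e-07).

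Gp6, the collagen receptor, read 5.64, 5.53 and 5.61 in wild-type, 5.67, 5.73 and 5.67 in heterozygous and 5.67, 5.77 and 5.78 in homozygous arrays. The homozygous arrays were slightly above the wild-type arrays, and the difference of 0.15 did not pass (95% interval 0.02 to 0.28; limma adjusted p = 0.111); with quantile normalization it did, at 0.18 (adjusted p = 0.0413). This interval does not reach the fall seen in any of the 7 called members. Gp6 was the one member gene whose brightest probe set did not fall, and it has no second probe set. The dimmer probe sets of Gp1bb and Itgb3 did not pass either, though the brighter ones fell. Whether the Gp6 probe set detects Gp6 RNA in this blood was not tested.

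Treml1, the α granule receptor, read 5.94, 5.96 and 5.96 in wild-type, 6.10, 6.35 and 6.15 in heterozygous and 5.41, 5.57 and 5.57 in homozygous arrays. The 3 groups were separate, with the heterozygous arrays highest. The homozygous minus wild-type difference was -0.44 ± 0.07 (SE; 95% interval -0.60 to -0.27; limma adjusted p = 0.000933), the smallest fall among the 7.

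**Figure D2:**
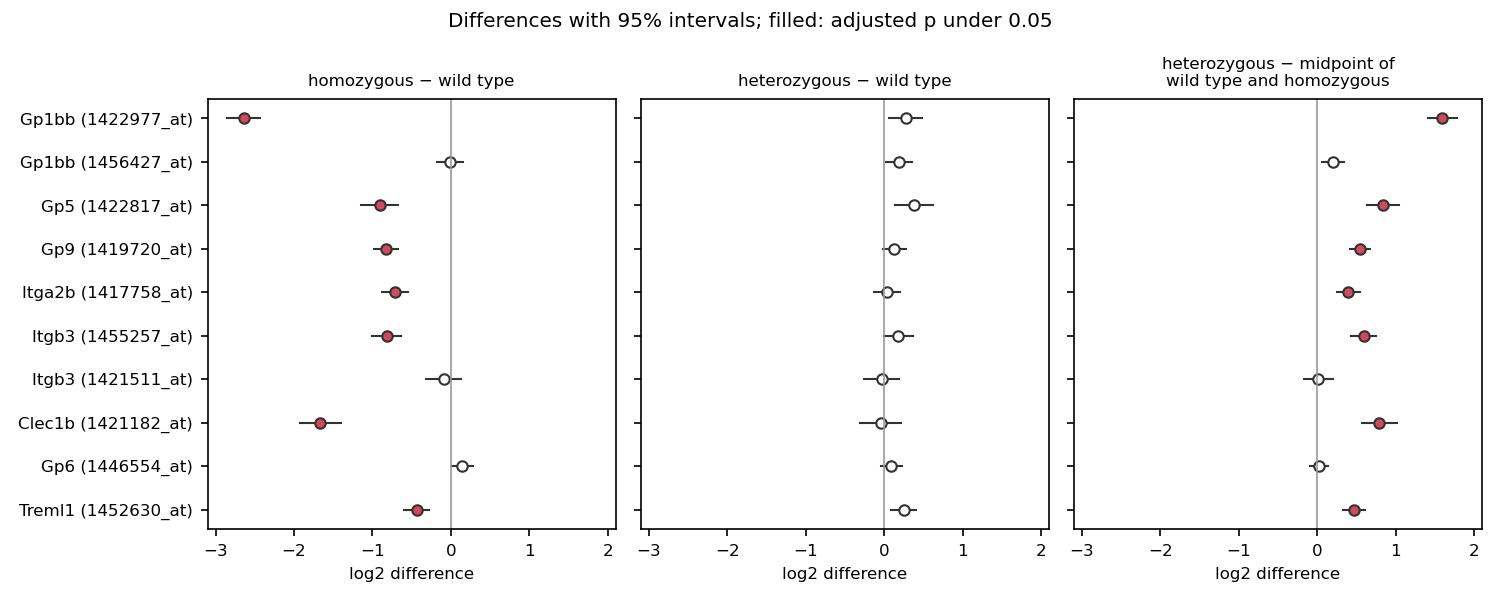
Log2 difference of each receptor probe set (points) with its 95% interval (lines) in homozygous minus wild-type, heterozygous minus wild-type and heterozygous minus midpoint; filled points passed an adjusted p under 0.05. The left panel reaches -2.64 for Gp1bb, no point of the middle panel is filled, and the right panel has 7 filled points, all above 0.

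With 1 copy of the allele the receptors stayed near or above the wild-type values. No probe set of the 10 passed the test in heterozygous minus wild-type blood in either direction, where 8.56% of all probe sets did (3.41% higher and 5.15% lower); at an unadjusted p under 0.05, 4 of the 10 were higher, where 8593 of all 45037 probe sets passed in either direction. Differences were above 0 for 8 of the 10, with a median of 0.16, against 0.01 over all probe sets. All 10 lay below 0 when scaled to the poly-A spike-ins, and with reference genes Gp6, Gp9 and Itga2b turned to -0.05, -0.01 and -0.11. Gp5 was nearest to the threshold, at 0.38 ± 0.11 (SE; 95% interval 0.14 to 0.62; limma adjusted p = 0.0532), followed by Treml1 at 0.25 ± 0.07 (SE; 95% interval 0.09 to 0.41; limma adjusted p = 0.0602). Both were called without homozygous replicate 1, with limma adjusted p = 0.0129 and 0.0444, since that array enters the shared estimate of the spread. The brighter Gp1bb probe set was at 0.27 (95% interval 0.06 to 0.49; limma adjusted p = 0.125).

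The intervals of the other receptors in heterozygous blood reflect only how these arrays varied on the deposited scale. They do not cover the shifts with spike-ins or reference genes given above. Itga2b was at 0.04 (95% interval -0.13 to 0.20) and Clec1b at -0.04 (95% interval -0.30 to 0.21). Gp9 was at 0.13 (95% interval -0.02 to 0.28) and the brighter Itgb3 probe set at 0.18 (95% interval -0.00 to 0.36). On this scale none of these intervals reached the fall of the same probe set in homozygous blood. The arrays of the heterozygous and wild-type groups did not overlap in 6 of the 10 probe sets, against 24.1% of all, with the heterozygous arrays higher in each of the 6.

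The heterozygous values did not lie halfway between the other genotypes. The heterozygous mean was compared with the midpoint of the wild-type and homozygous means on the log2 scale, and 7 of the 10 probe sets were above it, where 3.72% of all probe sets were called, 2.65% above and 1.07% below. By brightest probe sets 7 of the 8 genes were above it, against 5.18% of all genes called, 3.64% above and 1.53% below. These were the same 7 that fell in homozygous blood, and both comparisons use the same homozygous and wild-type arrays. Gp1bb was above the midpoint by 1.60 ± 0.08 (SE; limma adjusted p = 5.73e-07), Gp5 by 0.84, Clec1b by 0.79, Itgb3 by 0.59, Gp9 by 0.54, Treml1 by 0.47 and Itga2b by 0.40 (limma adjusted p of 0.00542 for the last). Gp6 was at 0.02 and did not pass. The 7 calls held with reference genes, a scaling that moved the median of all probe sets in this comparison by -0.13 and the share of called probe sets above the midpoint from 71.3% to 6.63%.

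The same 7 probe sets were lower between the mutant genotypes. In homozygous minus heterozygous blood 7 of the 10 were lower and none higher, where 12.1% of all probe sets were called, 7.95% lower and 4.17% higher. Over genes the count was 7 of 8, against 10.4% lower. Of called probe sets 34.4% were higher, and 79.4% with reference genes. Gp1bb was at -2.92, Clec1b at -1.62, Gp5 at -1.29, Itgb3 at -1.001, Gp9 at -0.96, Itga2b at -0.75 and Treml1 at -0.69, and the largest limma adjusted p among them was that of Treml1 (6.12e-05). Gp6 was at 0.05 and did not pass (limma adjusted p = 0.63). This comparison shares the homozygous arrays with the one against wild type.

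Genes for signalling partners of the receptors also fell in part in homozygous blood. In bulk blood the cell type behind each fall was not resolved, and markers of monocytes and macrophages fell as well. Of 33 measured signalling partners 16 were lower and 2 higher by their brightest probe sets (median -0.27), where 14.9% of all genes were lower and 10.7% higher (median 0.05). Dab2, an adaptor that binds the β3 tail, was at -2.27 and Fcer1g, the γ chain that Gp6 needs, at -1.66. The adaptor Fyb was at -1.12 and Fermt3, the kindlin that activates integrins, at -0.89. The kinase Csk and the actin cross-linker Flna rose, by 0.30 and 0.28. Syk was at -0.09 and talin, Tln1, at 0.06, and neither passed. Fcer1g read 6.98, 6.93 and 7.01 in wild-type, 6.92, 6.96 and 6.89 in heterozygous and 5.24, 5.22 and 5.49 in homozygous arrays. Its heterozygous arrays overlapped the wild-type arrays, and its homozygous arrays were below both. In heterozygous minus wild-type blood 4 of the 33 were higher and 2 lower (median 0.03), where 4.79% of all genes were higher and 7.04% lower. Fermt3, Dab2, Flna and Csk were higher, by 0.56, 0.47, 0.37 and 0.33, and Skap2 and Rap1a were at -0.29 and -0.26. With reference genes these counts were 3 higher and 6 lower.

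Some other surface receptors of platelets also fell. Of 27 measured, 8 were lower and none higher in homozygous blood (median -0.04), where 14.9% of all genes were lower and 10.7% higher (median 0.05). Cd47, which many blood cells carry, was at -1.23, the thrombin receptor F2r at -1.14, the laminin receptor chain Itga6 at -0.98 and the tetraspanin Cd9 at -0.68. The ADP receptor P2ry12 was at -0.45, with a dim wild-type mean of 3.08. P-selectin, Selp, was at 0.07 and Pear1 at 0.13, and neither passed. Of the 7 other integrin chains measured, Itga6 and Itgb1 fell and none rose (median -0.03). In heterozygous blood 1 of the 27 receptors was higher, Cd151 at 0.32, and 2 were lower, Cd47 at -0.83 and Cd9 at -0.24. These counts are near the shares over all genes, 4.79% higher and 7.04% lower. With reference genes none of the 27 was higher and 7 were lower.

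Many genes for stored and structural products of platelets fell with the receptors. Of 26 measured granule and cytoskeleton genes 16 were lower and none higher in homozygous blood (median -0.44). Over all genes 14.9% were lower and 10.7% higher. The other 10 did not pass, among them F5 at 0.02 and Nbeal2 at 0.12. F13a1, the coagulation factor XIII A chain, was at -3.56, Lyz2 at -2.53, and the platelet chemokines Ppbp and Pf4 were at -3.03 and -2.14. F13a1 and Lyz2 are also made by macrophages. Vwf, the ligand of glycoprotein Ib, read 4.40, 4.29 and 4.39 in wild-type, 4.79, 4.55 and 4.88 in heterozygous and 3.86, 3.70 and 3.45 in homozygous arrays. Its 3 groups were separate and in the order seen for Gp5 and Gp9, and both steps passed, at 0.38 and -0.69 from wild type (limma adjusted p = 0.0476 and 0.000449). In heterozygous blood 3 of the 26 were higher, Pf4, Alox12 and Vwf at 0.52, 0.45 and 0.38. As many were lower, Lyz2, F13a1 and Srgn at -1.15, -0.56 and -0.55. Over all genes 4.79% were higher and 7.04% lower. Pf4 read the same value, 8.9876, in all 3 wild-type arrays, which lowers the spread of that group. With reference genes 2 of the 26 were higher and 7 lower.

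Ligands of the receptors moved in both directions. Of 13 measured, 4 were lower in homozygous blood, Thbs1 at -1.03, Col3a1 at -0.94, Vwf at -0.69 and Col1a2 at -0.49. The 2 higher ones were Fn1 at 0.88 and the fibrinogen chain Fgb at 0.26, and the median was 0.03. Over all genes 14.9% were lower and 10.7% higher. With reference genes 5 of the 13 were lower and 1 higher. Podoplanin, Pdpn, the ligand of CLEC-2, was at -0.25 and did not pass (limma adjusted p = 0.0637). In heterozygous blood Col3a1, Col1a2, Vwf and Fn1 were higher, by 0.93, 0.53, 0.38 and 0.36, and none was lower. Over all genes 4.79% were higher and 7.04% lower. With reference genes, though, 3 of the 13 were higher and 1 lower.

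**Figure D3:**
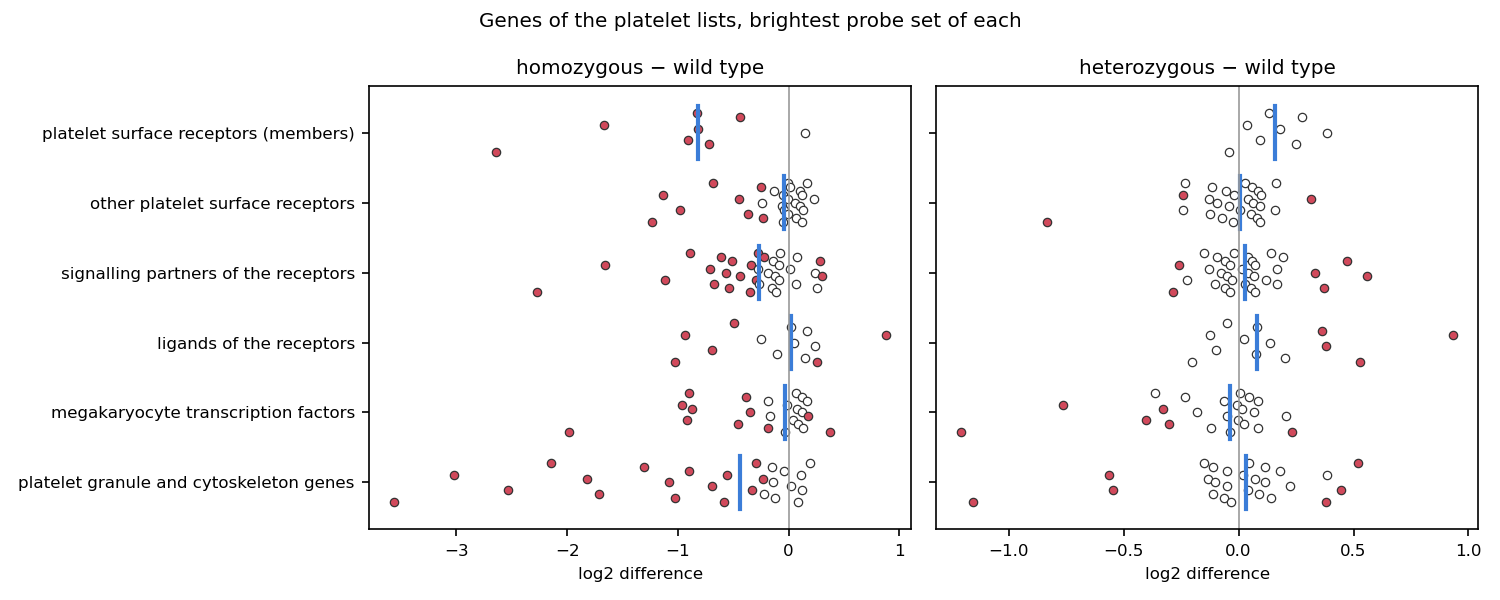
Log2 difference of each gene (points, brightest probe set) in the receptor set and 5 lists beside it, for homozygous and heterozygous minus wild-type blood; filled points passed an adjusted p under 0.05 and the blue bar is the list's median. The medians on the left run from -0.82 for the receptors to 0.03 for the ligands, and the receptors on the right have no filled point.

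Transcription factors of megakaryocytes were mostly near their wild-type values or lower. Of 23 measured, 9 were lower and 2 higher in homozygous blood (median -0.03), where 14.9% of all genes were lower and 10.7% higher. Myb was at -1.98, Tal1 at -0.96, Lmo2 at -0.92 and Cbfb, the targeted gene, at -0.90, while Gfi1b and Gata1 rose by 0.38 and 0.18; with reference genes 1 was higher. The erythroid lineage also uses Myb, Tal1, Lmo2, Gfi1b and Gata1. Nfe2, needed for platelet release, was at -0.19 (limma adjusted p = 0.0284). Runx1 at 0.17 and Fli1 at 0.08 did not pass, nor did any other probe set of these genes, and even the brighter Fli1 probe set was dim, with a wild-type mean of 2.54. Cbfb was read by 1 probe set, whose place in the transcript was not analysed here; its fall is therefore no check of the genotypes. In heterozygous blood Gfi1b was higher, by 0.23, and 5 factors were lower, led by Myb at -1.21 and Lmo2 at -0.76. Over all genes 4.79% were higher and 7.04% lower. With reference genes none of the 23 was higher and 9 were lower.

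Markers of other blood cells moved with the receptors in part. Over all genes 14.9% were lower and 10.7% higher in homozygous blood, and 7.04% and 4.79% in heterozygous blood. Of 12 monocyte and macrophage markers all 12 fell in homozygous blood (median -2.92). Their mean log2 level was 7.12 to 7.19 in wild-type, 6.80 to 6.85 in heterozygous and 4.63 to 4.75 in homozygous arrays, and 5 of the 12 fell in heterozygous blood. Of 11 megakaryocyte and platelet markers 8 fell in homozygous blood and 3 rose in heterozygous blood, where with reference genes 2 were higher and 2 lower. The 3 were Pf4, Alox12 and Vwf. These 11 markers were all counted in lists above, P2rx1 with the other receptors and the rest with the granule and cytoskeleton genes. Their mean level was 5.86 to 5.89 in wild-type, 6.06 to 6.07 in heterozygous and 4.98 to 4.99 in homozygous arrays. The receptors themselves stood at 6.39 to 6.41, 6.50 to 6.62 and 5.38 to 5.46. Neutrophil markers, 3 of 8 lower in homozygous and 4 of 8 in heterozygous blood, had mean levels of 5.21 to 5.38, 4.79 to 4.83 and 4.74 to 4.85. Progenitor markers, 3 of 6 and 2 of 6 lower, had levels of 5.33 to 5.35, 4.99 to 5.04 and 4.70 to 4.87. Of 8 erythroid markers 4 and 3 were lower. None of 10 endothelial markers passed limma's test in homozygous minus wild-type blood (2 at an unadjusted p under 0.05; 1 was lower with reference genes), with levels of 4.23 to 4.28, 4.27 to 4.29 and 4.23 to 4.27. The part of these cells in the receptor differences was not tested.

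**Figure D4:**
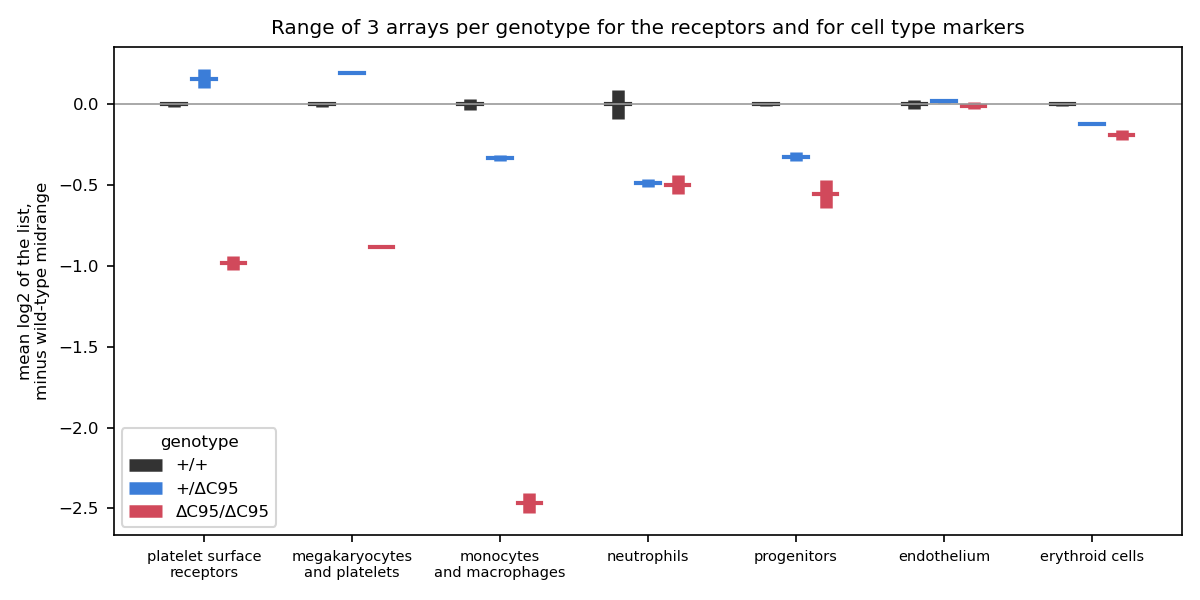
Mean log2 level of the receptors and of 6 lists of cell type markers, as the range over 3 arrays per genotype (bar height) around its middle (short line), each list set to 0 at the middle of its wild-type range. The receptors and the megakaryocyte and platelet markers lie above wild type in heterozygous and below it in homozygous blood, whereas monocyte and macrophage markers lie below wild type in both.

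Among genes that are no member, those whose pattern over the 9 arrays was most like the mean of the 8 receptor genes were ranked by Pearson's r, over 9088 genes brighter than the median gene. The 10 nearest were Dab2, Ncoa2, Plek, Grn, Marcks, Limd2, Norad, Laptm5, Dpysl2 and Hipk2, with r from 0.998 to 0.993 (n = 9 arrays). The arrays share their genotype, which sets most of this likeness, so r is a description. Each of the 10 was lower in homozygous and higher in heterozygous than in wild-type blood in its mean. The ranking itself selects for this order, which the receptor mean also had. Examples are Dab2 at -2.27 and 0.47, and Plek, which encodes pleckstrin, at -1.71 and 0.22. Which cells of the blood express these 10 genes was not tested.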

How the data were processed

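Total RNA of pooled embryonic blood was labelled by a one-cycle method and hybridized to whole-genome mouse arrays, per the labels' protocols. RMA, Affymetrix Expression Console 1.0 and Partek 6.5 are named in the submitters' processing notes, with no role or order. The deposited table holds 1 value per probe set and array, taken as a log2 value normalized by the authors, because RMA is named and the values run from 1.49 to 14.56. In 36% of probe sets (3 of the 10 members) at least 2 arrays of a genotype held the same value to the last digit, which lowers the spread of those groups. No detection values were used.

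Control probe sets, 64 in number, were left out. Genes were named from GEO's platform annotation, which gave 1 gene for 34945 probe sets, several for 932 and none for 9160. Older symbols were updated through RefSeq synonyms. Gene-level values are those of the probe set brightest on average. Genotype was modelled with limma 3.58.1 (R 4.3.3) on the 9 arrays together, with 2-sided tests, Benjamini-Hochberg adjustment over 45037 probe sets and a threshold of 0.05. The fit was tested on simulated data. Array medians were 4.27 to 4.30, and arrays of a genotype correlated at 0.996 to 0.998.

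Same-numbered arrays did not deviate together (r = -0.0231 to 0.0695), so the replicate numbers were not taken as pairs. The members and lists were chosen with earlier results of these data known. The text names all members, up to 4 called and up to 2 uncalled genes per list, direction and comparison, the regulators and partners Fcer1g, Gata1, Fli1, Nfe2, Runx1, Cbfb, Pf4, Ppbp, Vwf and Septin5, and the 10 genes most like the members. P2ry12, Acp5 and Hba-x were added after their values were seen. Alternatives were to fit only the genotypes compared, to block on replicate number, to drop the 40% dimmest probe sets, an intensity trend in the variance prior, quantile and cyclic loess normalization, scaling to 9 reference genes or to poly-A spike-ins, 1 probe set per gene and leaving out each array. Figures were drawn with matplotlib 3.10.9.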

Additional observations from a re-analysis of the deposited data

How the results depend on the processing

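The 7 falls in homozygous minus wild-type and homozygous minus heterozygous blood, and the 7 heterozygous values above the midpoint, kept their direction and their call in each alternative run. Leaving out each array in turn gave 7 to 7 called probe sets for homozygous minus wild type, 0 to 2 for heterozygous minus wild type, 7 to 8 for homozygous minus heterozygous and 7 to 8 for the midpoint. Heterozygous minus wild type is the comparison that depends on the processing. Where 0 of 10 probe sets were called, 1 was with only the 2 genotypes compared (Gp5) and 1 with quantile normalization (Treml1). Gp5 and Treml1, 2 in all, were called without the 40% dimmest probe sets, with an intensity trend and with 1 probe set per gene. Scaling to the poly-A spike-ins called 10 of 10 lower: Gp1bb at -0.61 and -0.69, Gp5 at -0.50, Gp6 at -0.79, Gp9 at -0.75, Itga2b at -0.84, the brighter Itgb3 probe set at -0.70 and Treml1 at -0.63 reversed their sign, and the other Itgb3 probe set and Clec1b stayed below 0. The same scaling turned Gp6 to -1.43 in homozygous minus wild-type and -0.65 in homozygous minus heterozygous blood. This follows from its shift of all probe sets, by -1.58, -0.88 and, between the mutants, -0.70. With the replicate number as a block, 7, 0, 7 and 7 probe sets were called in the 4 comparisons, and no call changed. The numbers mark no known pairing. Signal over background is unknown, so falls of dim probe sets may be understated.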
